A study of Mus musculus with 80 samples.

Results

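A group of 8 genes of fatty acid handling, known targets of the peroxisome proliferator-activated receptors (PPARs), was followed in mouse lung after inhaled styrene: Fabp1, Cpt1a, Acaa1b, Ehhadh, Acot1, Acot2, Pdk4 and Angptl4. The genes were chosen by name with earlier results of these arrays known, and each was taken from the deposited array table through probe sets annotated with its symbol alone, which all 8 had. They are 8 of the 17097 genes with a single symbol. All 8 were among the 11406 genes that were tested, a set that required a log2 value above the table median of 4.28 in at least 5 of the 80 arrays. Where a gene had more than 1 probe set, as 3 did, the probe set was selected on the highest mean over the 80 arrays. Because earlier results guided the choice of genes, the adjusted p-values below describe a fit over all tested genes and give no independent support for the choice.

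Whole lungs came from adult male mice bought from Taconic. The mice breathed styrene at 10, 40 or 120 ppm, or air alone at 0 ppm, in a single session of 6 h, and their lungs were taken the next morning. Styrene is the aromatic building block of polystyrene. The KO mice were CYP2F2 knockout C57Bl/6 mice, the TG mice were CYP2F1 humanized C57Bl/6 mice, the CD-1 mice were of an outbred stock, and the WT mice were wild-type C57Bl/6. CYP2F2 is the cytochrome P450 by which mouse club cells, secretory cells of the airway lining, oxidize styrene, and CYP2F1 is its human counterpart. The promoter of the human gene, its place of insertion and whether the TG mice also lack Cyp2f2 are not given in the labels. Each of the 4 strains was studied at all 4 doses with 5 biological replicates, which made 16 groups. The number of arrays in a group limits the precision.

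PPARs are nuclear receptors that bind fatty acids and, paired with a retinoid X receptor, switch on genes at a DNA element called DR1, a direct repeat with a single spacer base. PPAR alpha drives fatty acid burning in liver, heart and fasted tissues, PPAR gamma acts in fat cells and alveolar macrophages, and PPAR delta acts broadly. Their targets carry fatty acids in the cell (Fabp1), bring them into mitochondria (Cpt1a), shorten them in peroxisomes (Acaa1b, Ehhadh), release them from coenzyme A (Acot1, Acot2), save glucose when fat is burned (Pdk4) and restrain lipoprotein lipase outside the cell (Angptl4).

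Several arrays stood apart and touch the results that follow. The mean over 10 squamous epithelium and skeletal muscle genes, picked after the values were seen and including Krt4 and Acta1, was 10.4 in WT 40 ppm replicate 3, 9.67 in CD-1 0 ppm replicate 4 and 8.88 in WT 0 ppm replicate 1, while the next array had 4.80. Contrasts that use these groups were recomputed without the 3 arrays, for the 8 genes and for the other gene lists, and changed calls are given beside the counts and genes named below. The array medians over all probe sets ran from 4.09 to 4.20 in KO, 3.84 to 4.14 in TG, 4.24 to 4.30 in CD-1 and 4.53 to 4.60 in WT. The tests between strains in air therefore used arrays centred on their median over the tested genes. TG 0 ppm replicate 4 had the lowest median. Before centring, the probe set for Cyp2f2, the targeted gene, averaged 11.7 ± 0.10 in KO air lungs and 11.7 ± 0.19 in TG air lungs. In WT air lungs it averaged 13.2 ± 0.03 (SD, n = 5 each). Array medians over the tested genes averaged 6.98 in KO, 6.91 in TG and 7.37 in WT over all doses, so the Cyp2f2 values include this shift. Where the Cyp2f2 probe set lies relative to the deleted part is not stated in the labels. Lung tissue was evident in every array, with a mean of 11.7 to 12.3 over 8 alveolar type 2 markers.

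In WT lungs the 2 genes called (limma adjusted p under 0.05) were Fabp1 and Acaa1b, and both fell at every dose. Fabp1, the liver-type fatty acid binding protein, ferries long-chain fatty acids through the cytosol. Acaa1b is the second mouse copy of the peroxisomal thiolase, which performs the last cleavage of each round of fatty acid shortening. The 250 bases before the start site of each are shown because these 2 members were called in WT. They were read from RefSeq in the 5′ to 3′ direction of the gene on build GRCm38.p6. Fabp1 is on the plus strand (chr6:71199629-71199878) and Acaa1b on the minus strand (chr9:119157094-119157343).
Fabp1: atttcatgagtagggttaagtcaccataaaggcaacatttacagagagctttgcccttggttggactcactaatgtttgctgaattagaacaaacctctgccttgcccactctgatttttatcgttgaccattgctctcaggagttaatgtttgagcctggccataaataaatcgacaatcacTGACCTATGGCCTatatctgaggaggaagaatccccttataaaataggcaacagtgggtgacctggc
Acaa1b: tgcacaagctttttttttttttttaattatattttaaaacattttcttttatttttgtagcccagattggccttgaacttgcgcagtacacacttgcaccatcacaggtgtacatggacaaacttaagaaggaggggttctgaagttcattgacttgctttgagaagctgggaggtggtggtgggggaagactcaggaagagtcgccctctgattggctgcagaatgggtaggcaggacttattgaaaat

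The capitals mark the DR1-like match in Fabp1, at bases -67 to -55 from the start site. The search took 2 copies of AGGTCA with 1 free base between them, on both strands, with up to 2 mismatches in the 12 fixed letters, in windows that ran from 250 bases before to 50 bases after the start. The match read on the opposite strand with 1 mismatch. Of the 7 members with a window in the RefSeq table, 1 held a match, while 1268 of 32851 windows of all genes did (3.86%), and 182 did with at most 1 mismatch (0.554%). The windows of Acaa1b, Ehhadh, Cpt1a, Acot1, Acot2 and Pdk4 held no such letters, which says nothing of elements elsewhere.

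The Fabp1 log2 values in WT air lungs were 7.47, 7.23, 7.37, 7.46 and 7.20. After 10 ppm they were 6.22, 5.94, 6.20, 6.86 and 5.24, after 40 ppm 6.18, 6.04, 6.35, 6.03 and 6.52, and after 120 ppm 5.89, 5.82, 5.58, 6.11 and 6.39. Every exposed lung lay below every air lung. Fabp1 fell by 1.25 ± 0.21 at 10 ppm, 1.12 ± 0.21 at 40 ppm and 1.39 ± 0.21 at 120 ppm on the log2 scale (± SE, n = 5 per group), with adjusted p of 0.000339, 0.000645 and 9.37e-05 by limma with Benjamini-Hochberg adjustment over the 11406 genes. The level at 120 ppm was 0.383 times that in air. A second Fabp1 probe set, which the choice of probe set did not use, averaged 6.83 ± 0.12 in air, 5.94 ± 0.41 at 10 ppm, 5.83 ± 0.13 at 40 ppm and 5.59 ± 0.27 at 120 ppm (SD, n = 5 each), and all its exposed values also lay below those in air.

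Acaa1b in WT air lungs read 6.60, 6.94, 7.14, 7.12 and 7.38. After 10 ppm it read 5.73, 6.13, 5.60, 6.21 and 5.34, after 40 ppm 5.72, 6.51, 6.62, 5.41 and 6.19, and after 120 ppm 5.69, 5.87, 5.80, 5.97 and 6.10. The 10 and 120 ppm values lay below all air values, while 1 lung at 40 ppm, replicate 3 with the squamous and muscle genes, reached into the air range. The fall was 1.24 ± 0.21 (adjusted p = 0.000462 by limma), 0.95 ± 0.21 (0.00254) and 1.15 ± 0.21 (0.000634) at the 3 doses. Without the 3 arrays that stood apart Acaa1b fell by 1.34, 1.19 and 1.26, and Fabp1 fell by 1.22, 1.12 and 1.36, and all 6 calls held. Neither gene fell further with each step of dose. For Acaa1b, 0.425, 0.519 and 0.451 of the air level were left at 10, 40 and 120 ppm.

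So 2 of the 8 genes were called at each dose in WT, both downward. Of all tested genes, 12.6% were called at 10 ppm, 26% at 40 ppm and 23.9% at 120 ppm, in either direction, so the count of 2 of 8 lies near the background. The median change of the 8 genes was -0.43, 0.01 and -0.15 at the 3 doses, beside 0.00, -0.01 and 0.01 over all tested genes. Acaa1a, the near copy of Acaa1b, was not called, with -0.07 ± 0.05, -0.12 ± 0.05 and -0.11 ± 0.05 (SE) at 10, 40 and 120 ppm.

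**Figure D1:**
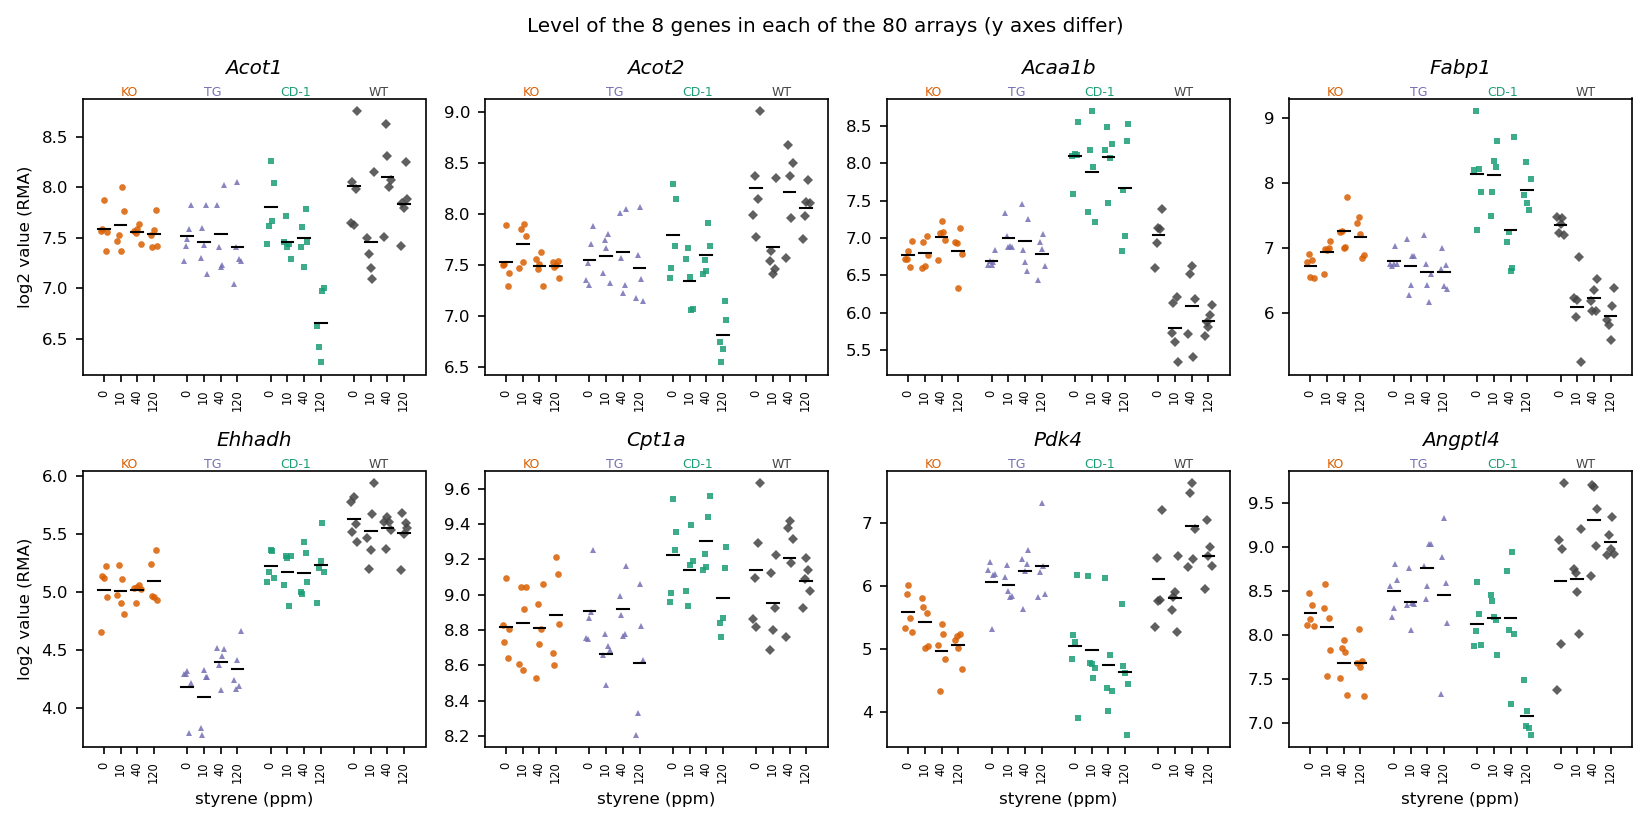
Log2 values of the 8 genes in every array. Columns are the doses of styrene in ppm (0 is air) within the KO, TG, CD-1 and WT strains, points are single lungs and bars are means of 5; the y axes differ. In WT, Fabp1 was 7.20 to 7.47 in air and 5.24 to 6.86 after styrene, and in CD-1 the Acot1 values at 120 ppm were 6.27 to 7.00.

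Fewer cells of a type and less RNA per cell cannot be told apart in a whole lung. Markers of the club cells, the site of CYP2F2, were also lower on average in exposed WT lungs. The mean level of 10 club cell markers, among them Scgb1a1, Scgb3a2 and Cyp2f2, ran from 10.9 to 11.2 in WT air lungs, from 10.4 to 10.8 at 10 ppm, from 9.62 to 10.4 at 40 ppm and from 9.98 to 10.4 at 120 ppm. Of the 10 markers, 4, 10 and 8 were lower at the 3 doses, and 4, 9 and 8 without the 3 arrays that stood apart. With all arrays their median change was -0.35 at 10 ppm and -1.01 at 40 ppm. Their part in the falls of Fabp1 and Acaa1b was not tested. Within groups the mean of the markers had a Pearson r of 0.135 with Fabp1 and -0.163 with Acaa1b over 80 arrays. This r describes deviations from group means, which hold no change with dose, so it does not address the falls. Both genes are also strongly expressed in liver. Of 10 hepatocyte markers 9 had a probe set, and their mean was 3.52 to 3.68 in WT air lungs, 3.64 to 3.82 at 10 ppm, 3.57 to 4.80 at 40 ppm and 3.42 to 4.00 at 120 ppm, with none of the 3 tested ones called. Of these, Alb rose at 10 ppm by 0.53 without the 3 arrays that stood apart (limma adjusted p = 0.0155). Alveolar type 2 markers had median changes of 0.03, 0.04 and 0.08, with 1, 1 and 2 of 8 called upward, and 0, 1 and 1 without those arrays.

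The other peroxisomal member, Ehhadh, the bifunctional enzyme that performs the hydration and dehydrogenation steps before the thiolase, did not pass in WT. Its changes were -0.10 ± 0.12, -0.07 ± 0.12 and -0.12 ± 0.12 (SE), with 95% intervals between -0.37 and 0.17 over the 3 doses. Its signal was low, above the table median in 70 of the 80 arrays, which limits what a change could show. Cpt1a, which loads long-chain fatty acids onto carnitine at the outer mitochondrial membrane, changed by -0.19 ± 0.15, 0.07 ± 0.15 and -0.06 ± 0.15 and was not called either, with 95% intervals from -0.49 to 0.38.

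Acot1 and Acot2 hydrolyse long-chain acyl-CoA to free fatty acid in the cytosol and in mitochondria. They are neighbouring near copies on mouse chromosome 12 (GRCm38.p6, Acot1 at 84009502 to 84017670 and Acot2 at 83987861 to 83993877). The Acot2 probe set is of the kind whose name marks probes shared between transcripts, so their signals may not be separate. In WT, Acot1 changed by -0.55 ± 0.23, 0.09 ± 0.23 and -0.17 ± 0.23, and Acot2 by -0.58 ± 0.23, -0.04 ± 0.23 and -0.20 ± 0.23 at 10, 40 and 120 ppm, and none was called. Acot2 at 10 ppm passed without WT 10 ppm replicate 5, with -0.75 (limma adjusted p = 0.0416). In 1 fit over all 80 arrays both genes passed at 10 ppm (limma adjusted p = 0.0439 for Acot1 and 0.0356 for Acot2). At 10 ppm, 4 of 5 lungs had less Acot1 than the air mean and replicate 5 had more, with 8.15. A second, dimmer Acot2 probe set averaged 6.15 ± 0.26 in air, 5.85 ± 0.42 at 10 ppm, 6.38 ± 0.30 at 40 ppm and 6.42 ± 0.18 at 120 ppm (SD), so the 2 probe sets differ in direction at the 2 higher doses.

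Pdk4 and Angptl4 were not called in WT at any dose. Pdk4 phosphorylates and turns off pyruvate dehydrogenase, so that glucose carbon is spared, and Angptl4 is a secreted inhibitor of lipoprotein lipase. The Angptl4 probe set, like that of Acot2, is of the kind whose name marks probes shared between transcripts. A second Angptl4 probe set averaged 2.78 and was above the table median in 0 of the 80 arrays. Pdk4 read 6.31, 7.49, 7.63, 6.43 and 6.91 in WT lungs after 40 ppm, against 5.36, 6.46, 5.77, 5.79 and 7.21 in WT air lungs. The groups overlapped, and air replicate 5 was higher than 3 of the 5 exposed lungs. The Pdk4 difference at 40 ppm was 0.84 ± 0.32 (adjusted p = 0.0623 by limma) and that of Angptl4 was 0.69 ± 0.33 (0.133), neither called. Without WT 0 ppm replicate 5 both passed, Pdk4 with 1.11 (limma adjusted p = 0.0117) and Angptl4 with 0.97 (0.0295). Without WT 40 ppm replicate 1 or 4, Pdk4 passed too, with 1.00 (limma adjusted p = 0.0367) and 0.97 (0.0469). At 120 ppm the differences were 0.37 ± 0.32 for Pdk4 and 0.45 ± 0.33 for Angptl4. Of 9 glucocorticoid response genes 3 rose at 40 ppm, and their mean level was 9.34 to 10.1 after 40 ppm, against 8.88 to 9.77 in WT air. When the 3 arrays that stood apart were left out 2 rose and 1 fell, and Fkbp5 was no longer called, with 0.37 (limma adjusted p = 0.319). Their part in the Pdk4 and Angptl4 values was not tested.

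**Figure D2:**
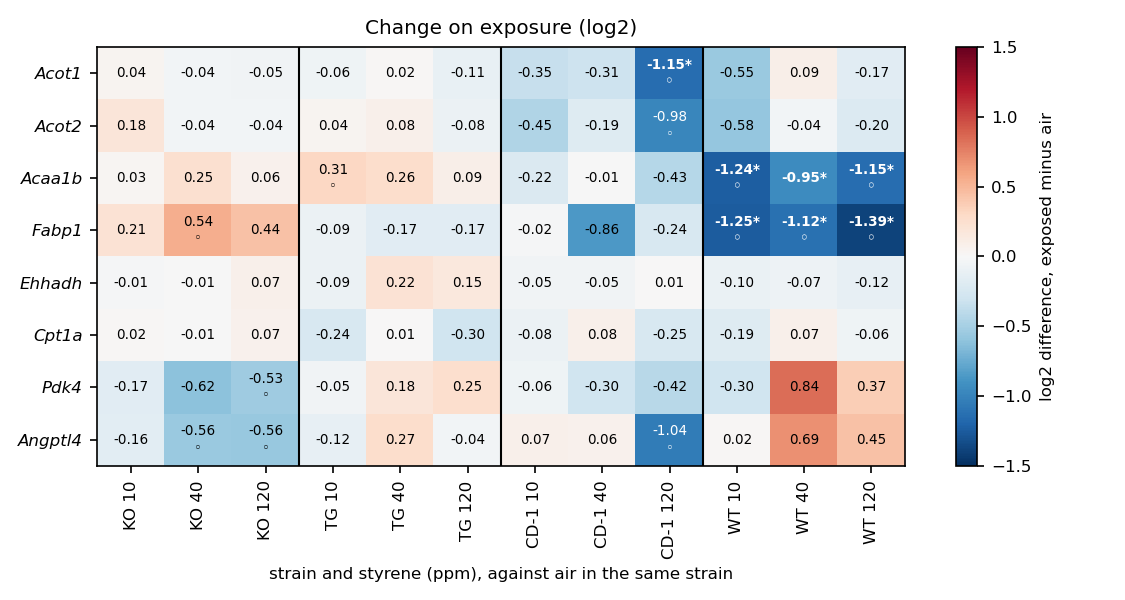
Log2 change of each gene at 10, 40 and 120 ppm against air in the same strain, in KO, TG, CD-1 and WT (n = 5 arrays per group). Colour gives the change, an asterisk with bold type a limma adjusted p under 0.05 and a small ring groups whose values do not overlap. How many of all tested genes had groups without overlap was not counted. Called cells are the falls of Fabp1 and Acaa1b in WT, between -0.95 and -1.39, and that of Acot1 in CD-1 at 120 ppm, -1.15.

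In KO lungs none of the 8 genes was called at 10, 40 or 120 ppm, and neither was any of the 11406 genes (0% at each dose by limma). At an unadjusted p under 0.05, 0, 3 and 3 of the 8 and 649, 564 and 596 of all genes passed. Fabp1 did not have the lower values seen in WT. It read 7.25, 7.27, 7.00, 7.02 and 7.78 in KO lungs after 40 ppm, against 6.78, 6.90, 6.56, 6.82 and 6.53 in KO air lungs, with no overlap. The difference was 0.54 ± 0.14 at 40 ppm and 0.44 ± 0.14 at 120 ppm, with adjusted p of 0.988 and 0.837 by limma. How many of all tested genes separated without overlap in KO was not counted, so the separation gives no support beyond the tests. The second Fabp1 probe set averaged 6.32 ± 0.14 in KO air. It averaged 6.27 ± 0.21 at 10 ppm, 6.81 ± 0.29 at 40 ppm and 6.57 ± 0.15 at 120 ppm (SD, n = 5 each). KO 40 ppm replicate 2, with Fabp1 at 7.27, had the highest hepatocyte marker mean in KO, 4.61, and its part was not tested. Acaa1b differed by 0.03 ± 0.13, 0.25 ± 0.13 and 0.06 ± 0.13 at the 3 doses.

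Pdk4 and Angptl4 were lower in exposed KO lungs, without a call. Angptl4 read 8.11, 8.48, 8.18, 8.34 and 8.10 in KO air lungs, 7.51, 7.84, 7.94, 7.80 and 7.31 after 40 ppm and 7.68, 8.07, 7.63, 7.70 and 7.31 after 120 ppm. Both of these dose groups lay wholly below air, with differences of -0.56 ± 0.17 at 40 ppm and -0.56 ± 0.17 at 120 ppm (adjusted p = 0.988 and 0.837 by limma). Pdk4 differed by -0.62 ± 0.20 and -0.53 ± 0.20, and its 120 ppm values did not overlap those in air. Separation of this kind was not counted over all tested genes in KO and gives no support beyond the tests. The mean of the 9 glucocorticoid response genes was 8.53 to 8.92 in KO lungs after 40 ppm, against 8.78 to 9.19 in KO air, with none called, and their part in these values was not tested. The remaining members, Acot1, Acot2, Cpt1a and Ehhadh, had differences between -0.05 and 0.18 over the KO doses.

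In TG lungs none of the 8 was called at any dose, where 0% of all genes were called at 10 ppm, 0% at 40 ppm and 0.0701% at 120 ppm. At an unadjusted p under 0.05, 0, 0 and 1 of the 8 passed, against 1579, 867 and 1439 of all genes. The median over all tested genes stood at 0.06, 0.05 and 0.06 in these contrasts. Fabp1 differed by -0.09 ± 0.17, -0.17 ± 0.17 and -0.17 ± 0.17 at 10, 40 and 120 ppm. Acaa1b differed by 0.31 ± 0.15, 0.26 ± 0.15 and 0.09 ± 0.15. Its deposited 10 ppm values, 6.87 to 7.33, lay above the 6.64 to 6.84 of TG air. Relative to the array median the 2 groups overlapped. TG air reached 0.07 in replicate 4, the array with the lowest median, and the lowest 10 ppm value was -0.05. Of the other 6 genes, the one farthest from 0 at any dose was -0.30 ± 0.14 for Cpt1a at 120 ppm.

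In CD-1 lungs Acot1 fell at 120 ppm. It read 6.63, 6.42, 6.27, 6.98 and 7.00 after 120 ppm, against 7.44, 7.61, 8.26, 7.67 and 8.04 in air. No values overlapped, and the change was -1.15 ± 0.16 (adjusted p = 0.00942 by limma), which left 0.452 of the air level. At 10 and 40 ppm the differences were -0.35 ± 0.16 and -0.31 ± 0.16, with adjusted p of 1 for both. Without CD-1 0 ppm replicate 4 the change at 120 ppm was -1.18 with limma adjusted p = 0.0231.

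Acot2 and Angptl4 lay beside it without a call. Acot2 read 6.75, 6.55, 6.68, 7.15 and 6.96 after 120 ppm, against 7.38, 7.47, 8.30, 7.69 and 8.15 in CD-1 air, a difference of -0.98 ± 0.17 (limma adjusted p = 0.066). Without CD-1 0 ppm replicate 1 or CD-1 120 ppm replicate 4 it passed, with -1.08 and -1.06 (limma adjusted p = 0.0424 and 0.0392). Its second probe set averaged 5.00 ± 0.45 after 120 ppm and 5.57 ± 0.33 in air (SD, n = 5 each). Angptl4 read 7.49, 6.96, 7.14, 6.94 and 6.86 after 120 ppm, against 7.87, 8.04, 8.59, 8.23 and 7.88 in air, a difference of -1.04 ± 0.24 (limma adjusted p = 0.266). In 1 fit over all 80 arrays Acot2 and Angptl4 passed at 120 ppm (limma adjusted p = 0.00103 and 0.0337). The Acot2 and Angptl4 values at this dose also did not overlap those in air. How many of all tested genes separated in this way was not counted, so this gives no support beyond the tests. Acot1 was thus 1 of 8 called at 120 ppm, where 0.0175% of all tested genes, 2 of 11406, were called. None of the 8 was called at 10 ppm (0% of all genes) or 40 ppm (0.00877%), where 2 and 1 of the 8 and 272 and 442 of all genes had an unadjusted p under 0.05. Fabp1 after 40 ppm ranged from 6.64 to 8.70, against 7.28 to 9.10 in CD-1 air, and its difference of -0.86 ± 0.35 was not called. The 14 tested circadian clock genes had a median change of 0.76 in CD-1 at 120 ppm, with none called, and their part in the fall of Acot1 was not tested. Without CD-1 0 ppm replicate 4, the one of the 3 arrays that this contrast uses, Arntl fell by 1.93 (limma adjusted p = 0.0281). The mean of 5 adipose tissue markers was 3.13 to 5.06 after 120 ppm, against 3.48 to 4.92 in CD-1 air.

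The response of a strain was then set against that of WT at the same dose, by the contrast of the 2 changes. The contrasts of KO, TG and CD-1 share the WT lungs. The KO response of Fabp1 lay above that of WT by 1.47 ± 0.26 at 10 ppm (adjusted p = 0.000165 by limma), 1.67 ± 0.26 at 40 ppm (2.1e-05) and 1.83 ± 0.26 at 120 ppm (4.53e-06). For Acaa1b the KO difference was 1.26 ± 0.25 (0.000838), 1.19 ± 0.25 (0.00118) and 1.21 ± 0.25 (0.00113). These 6 calls held without the 3 arrays that stood apart.

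The KO response of Pdk4 and Angptl4 lay below that of WT at 40 ppm, by -1.46 ± 0.39 (limma adjusted p = 0.0102) and -1.25 ± 0.39 (0.0256). Without the 3 arrays both calls were lost, Pdk4 with -1.10 (limma adjusted p = 0.0602) and Angptl4 with -0.85 (0.117). The Angptl4 call was also lost without any one of KO 40 ppm replicate 5, WT 0 ppm replicates 1 and 3 and WT 40 ppm replicates 2 and 3. At 120 ppm the differences were -0.90 ± 0.39 for Pdk4 and -1.01 ± 0.39 for Angptl4, not called, although both passed without WT 0 ppm replicate 5, with -1.18 (0.0319) and -1.29 (0.0154). Acot2 at 10 ppm, not called with 0.76 ± 0.26 (limma adjusted p = 0.061), passed without the 3 arrays with 0.83 (0.0496), and also without any one of KO 0 ppm replicate 3, WT 0 ppm replicates 1 and 3 and WT 10 ppm replicate 5. In all, 2, 4 and 2 of the 8 genes differed in response between KO and WT at 10, 40 and 120 ppm, beside 7.59%, 13.9% and 11.4% of all tested genes.

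The TG responses of the same pair differed from WT as well. For Acaa1b the difference was 1.54 ± 0.26 (adjusted p = 0.000139 by limma), 1.20 ± 0.26 (0.00216) and 1.23 ± 0.26 (0.00177) at 10, 40 and 120 ppm. For Fabp1 it was 1.17 ± 0.28 (0.00763), 0.95 ± 0.28 (0.0238) and 1.22 ± 0.28 (0.00342). These 6 calls also held without the 3 arrays. The call of Fabp1 at 40 ppm was lost without TG 40 ppm replicate 1, with 0.81 (limma adjusted p = 0.0567). With the mean of both Fabp1 probe sets the difference was 0.88 at 10 ppm (limma adjusted p = 0.0551) and 0.78 at 40 ppm (0.0705), neither called. With 2 of 8 genes called at each dose, the background was 5.51%, 10.1% and 9.75% of all tested genes.

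In CD-1 the differences of Fabp1, 1.24 ± 0.42, 0.26 ± 0.42 and 1.15 ± 0.42, and of Acaa1b, 1.02 ± 0.39, 0.94 ± 0.39 and 0.72 ± 0.39, were not called. Fabp1 passed without CD-1 0 ppm replicate 2, with 1.48 at 10 ppm (limma adjusted p = 0.0499) and 1.39 at 120 ppm (0.0458). It also passed at these doses in 1 fit over all 80 arrays (limma adjusted p = 0.0293 and 0.0337). The 95% interval of the Fabp1 difference at 120 ppm was 0.29 to 2.00. At 120 ppm Acot1 differed by -0.97 ± 0.29 (limma adjusted p = 0.0494) and Angptl4 by -1.49 ± 0.43 (0.038), 2 of 8 beside 4.37% of all genes. Both calls were lost without the 3 arrays, with -0.91 (limma adjusted p = 0.0877) and -1.15 (0.0974). Of 20 fits that each left out 1 lung, 6 kept the Acot1 call and 8 the Angptl4 call. None of the 8 was called at 10 ppm (1.89% of all genes) or 40 ppm (1.61%), where 2 and 1 of the 8 and 1513 and 1923 of all genes had an unadjusted p under 0.05.

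**Figure D3:**
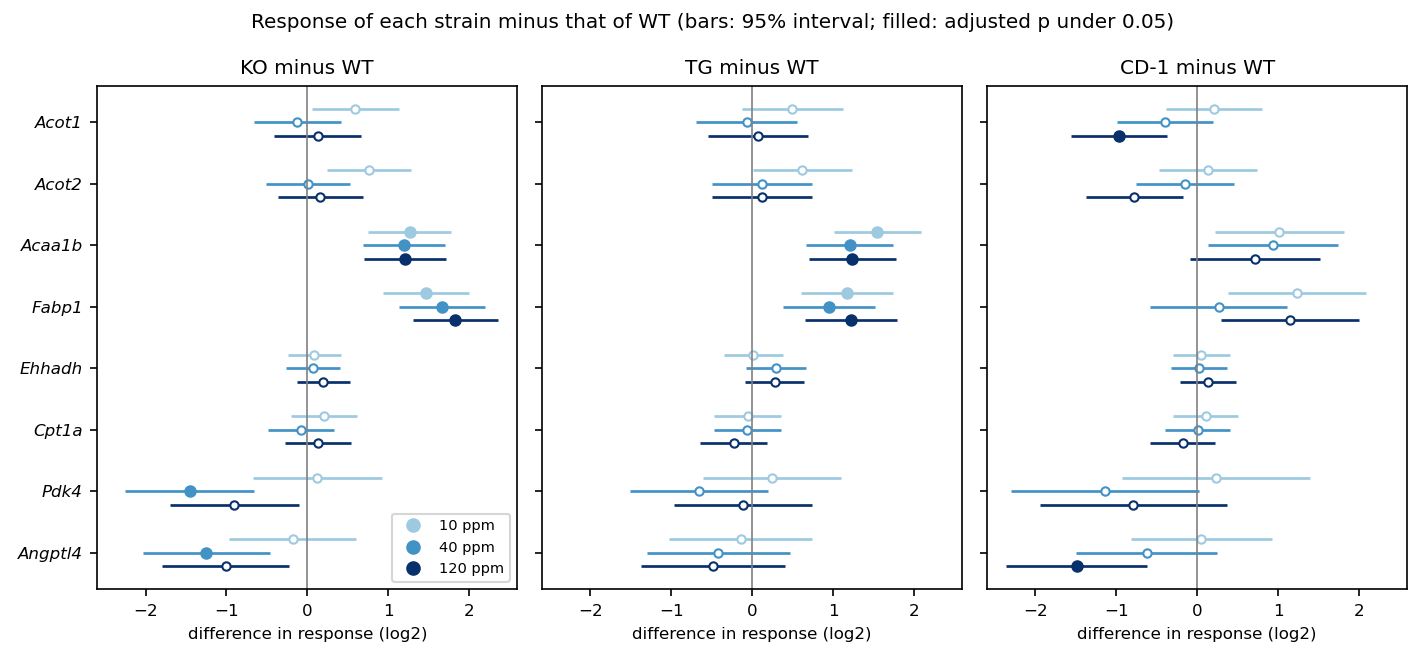
Difference between the response of KO, TG or CD-1 and that of WT, on the log2 scale, at 10, 40 and 120 ppm. Bars are 95% intervals and filled points have a limma adjusted p under 0.05. In KO and TG the intervals of Fabp1 and Acaa1b lie above 0 at all 3 doses, with estimates from 0.95 to 1.83, while those of Ehhadh and Cpt1a include 0 in every panel.

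Air-breathing lungs of the strains differed in 3 of the genes. Array medians differed by strain, and centring removes only a shift common to all genes. Strain and any difference in array processing therefore cannot be told apart in these contrasts. Ehhadh was lower in TG, between -2.82 and -2.59 relative to the array median, against -1.91 to -1.52 in WT air. The difference was -0.96 ± 0.10 (adjusted p = 2.05e-06 by limma on the 20 air arrays), and no values overlapped. It was the 1 member of 8 called between TG and WT in air, where 35.3% of all tested genes were called, and it held without TG 0 ppm replicate 4, with -0.93. The 15 styrene-exposed TG lungs, which this contrast did not use, averaged -2.66 ± 0.24, against -1.94 ± 0.15 in exposed KO, -1.92 ± 0.20 in exposed CD-1 and -1.84 ± 0.20 in exposed WT lungs (SD, n = 15 each). The highest exposed TG value, -2.27, lay below the lowest exposed WT value, -2.19. In TG the deposited Ehhadh signal was above the table median in 10 of 20 arrays, so the difference rests on values near the low end of the scale.

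CD-1 air lungs had more Acaa1b and Fabp1 than WT air lungs. Acaa1b lay 0.46 to 1.44 above the array median in CD-1 air and between -0.74 and 0.04 in WT air, a difference of 1.31 ± 0.15 (adjusted p = 8.94e-07 by limma). Fabp1 lay 0.17 to 1.97 above it in CD-1 air and between -0.15 and 0.13 in WT air, a difference of 1.03 ± 0.21 (0.000945). These were 2 of 8 members called, both upward, beside 31.7% of all tested genes in either direction. The 9 hepatocyte markers averaged 3.92 to 4.19 in CD-1 air lungs and 3.52 to 3.68 in WT air lungs, before centring, with 1 of 3 tested ones higher, and their part was not tested. Pdk4 in CD-1 air was not called with -0.82 ± 0.35 (limma adjusted p = 0.0811) but passed without the 3 arrays that stood apart, with -1.29 (0.00573). Cpt1a passed without WT 0 ppm replicate 5, with 0.45 in CD-1 (limma adjusted p = 0.0167) and 0.38 in TG (0.0391). Between KO and WT air lungs none of the 8 was called (12.7% of all genes were, and 1 of the 8 had an unadjusted p under 0.05); Fabp1 differed by -0.26 ± 0.21 and Acaa1b by 0.10 ± 0.15.

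**Figure D4:**
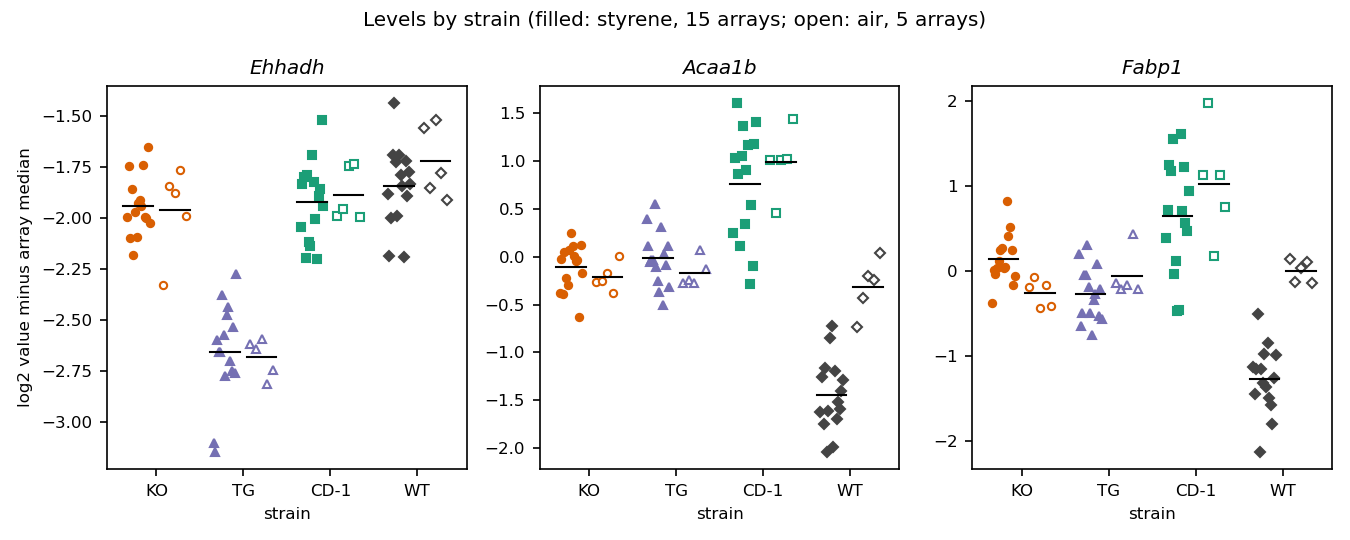
Log2 values of Ehhadh, Acaa1b and Fabp1 minus the array median, in KO, TG, CD-1 and WT. Filled points are the 15 styrene-exposed lungs and open points the 5 air lungs of a strain, with bars at the means. Exposed TG lungs averaged -2.66 for Ehhadh and exposed WT lungs -1.84, and Acaa1b averaged -1.45 in exposed WT lungs and -0.32 in WT air lungs.

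The genes also varied between lungs of the same group. Each value was set against its group mean, and members were correlated over the 80 arrays, with arrays permuted within groups (100000 resamples, two-sided) and p adjusted over the 28 pairs. Of these pairs 12 were correlated and all 12 positively. Acot1 and Acot2 had the highest Pearson r, 0.915 (Spearman rho 0.883, p = 1e-05 for both, the smallest these resamples can give; adjusted p = 4.67e-05), and it was 0.896 without the 2 most extreme lungs. It stood at 0.806 in KO, 0.943 in TG, 0.864 in CD-1 and 0.945 in WT. The part of shared probes in this pair was not tested. The 2 most extreme lungs were those farthest from the median deviation of Acot1 alone. In the pairs below they were picked on Acot1 or Acot2 where present, and otherwise on Pdk4.

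Cpt1a moved with the thioesterases, with r of 0.693 for Acot1 (rho 0.608) and 0.646 for Acot2 (rho 0.576), each with permutation p = 1e-05 and adjusted p = 4.67e-05, and 0.655 and 0.601 without the 2 most extreme lungs. Pdk4 and Angptl4 formed another pair, r = 0.682 (rho 0.713, permutation p = 1e-05, adjusted p = 4.67e-05, and 0.685 without the 2 most extreme lungs), with 0.581 in KO, 0.707 in TG, 0.626 in CD-1 and 0.842 in WT. Acot1 and Pdk4 had r = 0.364 over all strains (rho 0.374, permutation p = 0.00534, adjusted p = 0.013), and r was 0.278 without the 2 most extreme lungs. Within strains it ran from -0.194 in CD-1 to 0.841 in WT, so that pair did not hold in every strain. Among the other called pairs, Acot2 with Pdk4 was also negative in CD-1 (-0.178), and Cpt1a with Angptl4 in KO (-0.0461). Acot1 with Angptl4 was 0.108 in KO. Fabp1 and Ehhadh were in none of the 12 pairs, and Fabp1 and Acaa1b, which fell together in WT, had r = 0.178 within groups (rho 0.189, permutation p = 0.183, adjusted p = 0.285). Without the 3 arrays that stood apart, r was 0.913 for Acot1 and Acot2, 0.684 for Pdk4 and Angptl4 and 0.182 for Fabp1 and Acaa1b.

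**Figure D5:**
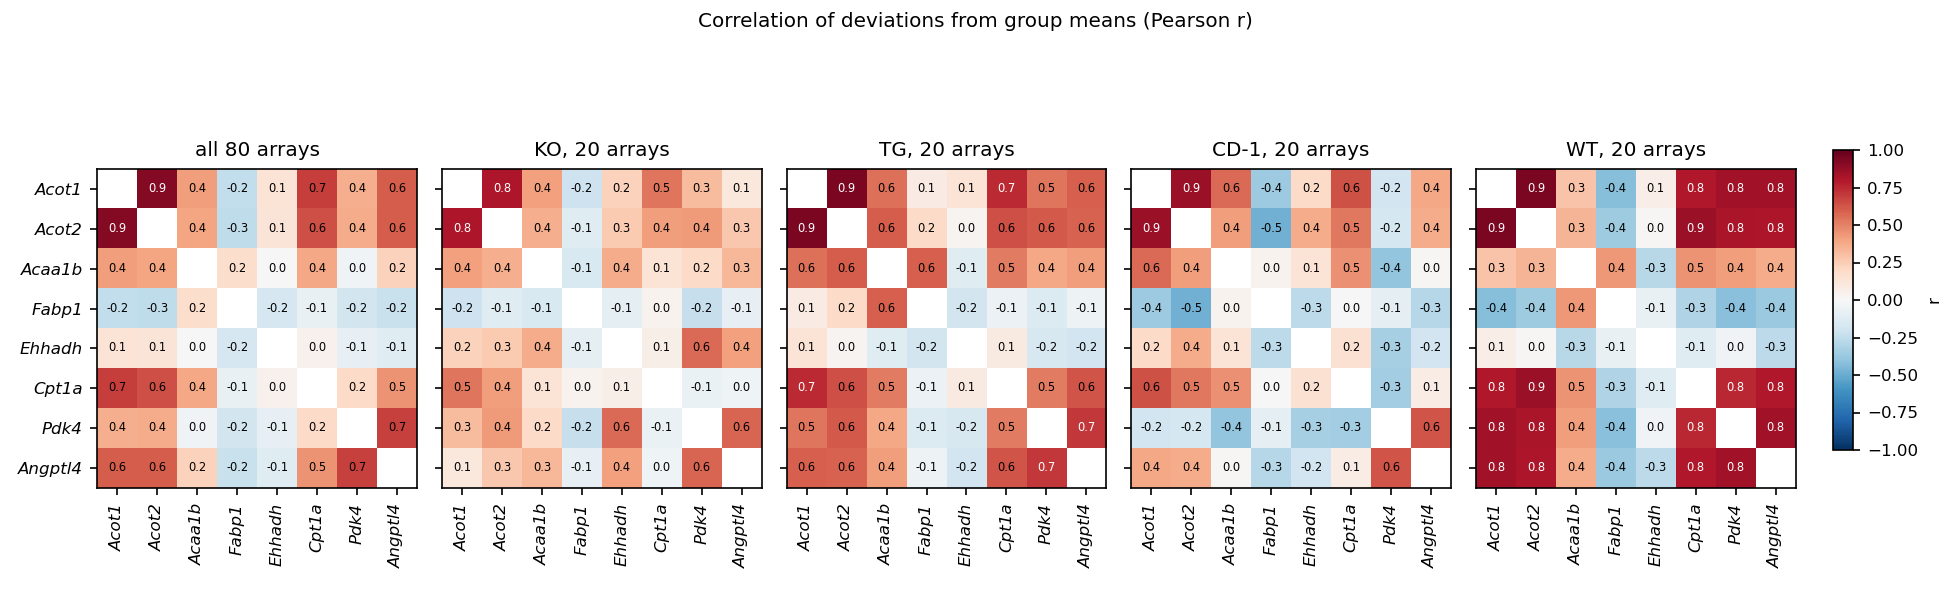
Pearson r between the 8 genes of their deviations from group means, over all 80 arrays and over the 20 arrays of KO, TG, CD-1 and WT. Acot1, Acot2 and Cpt1a form a block of positive values in every panel, and Pdk4 with Angptl4 runs from 0.581 in KO to 0.842 in WT.

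Among all other tested genes, those most like each member by Pearson r over the same 80 deviations are given as a description. For Acot1 they were Slc25a20, the mitochondrial carnitine carrier (r = 0.67), Acadl, the long-chain acyl-CoA dehydrogenase (0.652), and Txnip (0.622), and for Acot2 they were Acadl (0.634), Slc25a20 (0.633) and Txnip (0.62). Cpt1a was most like Acadl (0.70), Bach2 (0.647) and Ralgapa2 (0.615). Pdk4 was most like Map3k6 (0.72), Fkbp5 (0.701) and Cdkn1a (0.69), and Angptl4 like Cdkn1a (0.68), Fkbp5 (0.644) and Pex11a (0.613). Fkbp5 is a known glucocorticoid target. The mean of the 9 glucocorticoid response genes, which include Fkbp5 and Cdkn1a, had r = 0.748 with Pdk4 and 0.55 with Angptl4. With the other 6 genes it had values from -0.226 to 0.075. The mean of 11 other PPAR target and lipid droplet genes, Txnip among them, had 0.385 with Pdk4 and 0.391 with Angptl4. With the other 6 genes its r ran from -0.164 for Fabp1 to 0.527 for Acot1. The part of either list in the values of the members was not tested. Acaa1b was most like Slco2b1 (0.571), Acaa1a (0.541) and Ramp1 (0.54), and Fabp1 like Nop10 (0.603), S100g (0.584) and Siglecf (0.572). Ehhadh had the lowest, with Brd8 (0.515), Armt1 (0.513) and Bhlhe40 (0.502).

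Of 76 other tested genes of PPAR signalling and fatty acid metabolism, 3 rose and 9 fell at 10 ppm (15.8%), 8 rose and 10 fell at 40 ppm (23.7%) and 5 rose and 9 fell at 120 ppm (18.4%), shares near those of all tested genes given above. The counts without the 3 arrays that stood apart were 4 that rose and 10 that fell at 10 ppm, 8 and 8 at 40 ppm and 6 and 9 at 120 ppm. With all arrays the median changes were -0.07, -0.03 and -0.01. None of the 76 was called in KO, TG or CD-1 at any dose by limma.

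Among the receptors, Pparg fell in WT at each dose, by 0.45 ± 0.11 (adjusted p = 0.00752 by limma), 0.39 ± 0.11 (0.0101) and 0.55 ± 0.11 (0.00109). The call at 40 ppm was lost without the 3 arrays, with -0.33 (limma adjusted p = 0.0581). Ppara changed by -0.12, -0.06 and -0.11 and Ppard by -0.05, 0.05 and 0.14, all with an SE of 0.08 to 0.09, and neither was called. Lpin1, a coactivator of PPAR alpha and a phosphatidate phosphatase, fell by 0.37, 0.49 and 0.46. Of 9 tested receptor and coregulator genes 2, 3 and 2 fell and none rose, and without the 3 arrays 2, 2 and 3 fell.

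Of the enzymes, Acadl rose by 0.35 ± 0.09, 0.47 ± 0.09 and 0.41 ± 0.09, while Hadh, which acts later in the same mitochondrial cycle, fell by 0.25 ± 0.06, 0.23 ± 0.06 and 0.21 ± 0.06. Among 15 other peroxisomal and omega-oxidation genes 2, 3 and 1 fell and 0, 1 and 0 rose at the 3 doses, and without the 3 arrays 2, 2 and 1 fell and none rose. Hsd17b4, the other bifunctional enzyme, fell by 0.28 at 10 ppm and 0.21 at 40 ppm, and Cat, the catalase that clears peroxisomal peroxide, fell by 0.34 at 40 ppm and 0.29 at 120 ppm. Slc27a2, a fatty acid transporter with acyl-CoA synthetase activity, fell by 0.81 at 40 and at 120 ppm. Of the other thioesterases, Acot9 and Acot10 rose at 40 ppm by 0.42 each and at 120 ppm by 0.35 and 0.33, and Acot13 fell at all 3 doses by 0.21 to 0.27. Acot13 was not called without the 3 arrays at 40 ppm, with -0.20 (limma adjusted p = 0.0955), or at 120 ppm, with -0.22 (0.0544). Acot3 and Acot5 had a probe set but too low a signal to be tested. Plin2, which coats lipid droplets, rose by 0.40 at 40 ppm and 0.34 at 120 ppm, and Angptl8, a partner of other angiopoietin-like inhibitors of lipoprotein lipase, rose by 0.46 and 0.60.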

How the data were processed

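RNA of 80 mouse lungs was measured on Affymetrix arrays with the 3' IVT PLUS labelling kit, per the labels' protocols. Per the submitters' processing notes, RMA and Partek were used by the authors, who deposited log2 values for 45037 probe sets, of which 28898 had a single symbol, 551 several and 15588 none. Their versions and settings are not stated. Arrays were distinct (highest r between any pair 0.997).

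Genes were named through the array's annotation table, each by its brightest probe set. Tests used limma 3.58.1 in R 4.3.3 (lmFit and eBayes) with Benjamini-Hochberg adjustment at 0.05. Dose contrasts were fitted on the 20 arrays of a strain, response differences on 40 arrays, and air contrasts on 20 arrays centred on their medians. The steps were tested on simulated data. Correlations used SciPy 1.17.1. The 8 genes and all gene lists were chosen with earlier results of these data known; other genes are named where called in their list, and the most similar by the highest 3 correlations. Deviations of lungs with the same replicate number had r from -0.521 to 0.326, with a mean per contrast between -0.13 and 0.128. The main fits did not pair lungs by number, and whether the numbers carry a pairing is not settled by these values. Alternatives were another filter, centring, quantile normalization, the mean of probe sets, an intensity trend, a fit over all arrays, a replicate block, leaving out each array, and, chosen after seeing the data, leaving out the 3 arrays with squamous and muscle genes.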

Additional observations from a re-analysis of the deposited data

Results flagged for a closer look

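Of 128 combinations of gene and group, 8 held a lung that lay far from the other 4. Chance flags about 1 in 20 groups. Acot2 was 8.35 in WT 10 ppm replicate 5, while the others had 7.42 to 7.63. Pdk4 was 6.16 in CD-1 10 ppm replicate 1, with the others at 4.55 to 4.79, and 5.32 in TG 0 ppm replicate 3, with the others at 6.18 to 6.38. Fabp1 was 6.59 in KO 10 ppm replicate 1, below 6.96 to 7.10, and 7.03 in TG 0 ppm replicate 4, above 6.72 to 6.76. Acaa1b was 6.84 in TG 0 ppm replicate 5, above 6.64 to 6.69. Ehhadh was 4.91 in KO 40 ppm replicate 2, below 5.03 to 5.06, and 3.79 in TG 0 ppm replicate 4, the array with the lowest median, below 4.22 to 4.32.

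The response of a strain differed from that of WT in 16 cases by the limma contrast of the 2 changes. In KO, Fabp1 differed by 1.47, 1.67 and 1.83 and Acaa1b by 1.26, 1.19 and 1.21 at 10, 40 and 120 ppm, while at 40 ppm Pdk4 differed by -1.46 and Angptl4 by -1.25. In TG, Acaa1b differed by 1.54, 1.20 and 1.23 and Fabp1 by 1.17, 0.95 and 1.22. In CD-1 at 120 ppm, Acot1 differed by -0.97 and Angptl4 by -1.49. Without the 3 arrays with squamous and muscle genes the calls of the last 2 genes in KO and in CD-1 were lost, with -1.10 for Pdk4 and -0.85 for Angptl4 in KO and -0.91 for Acot1 and -1.15 for Angptl4 in CD-1.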

How the results depend on the processing

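Of 1680 gene values under alternatives other than leaving out an array, 1645 kept their call and direction, and of 2640 without 1 array, 2588 did. The WT falls of Fabp1 and Acaa1b, their KO differences from WT and the CD-1 fall of Acot1 at 120 ppm kept their calls under every alternative run. The 1 reversal was Acaa1b between TG and WT air without centring, -0.3391. Members called numbered 4 for WT 10 ppm, 3 for CD-1 120 ppm and 1 each for TG minus WT at 40 ppm and CD-1 minus WT at 10 ppm in 1 fit over all arrays. With the mean of probe sets they numbered 1 for TG minus WT at 10 and 40 ppm and 2 for TG air. Without centring, KO, TG and CD-1 air had 4, 5 and 4. With the 3 arrays left out, KO minus WT at 40 ppm had 2 and CD-1 minus WT at 120 ppm 0. That CD-1 contrast had 0 without a filter and 1 with centring, quantile normalization or the replicate block. Centring gave CD-1 120 ppm 2. Leaving out 1 lung gave 2 to 4 for WT 40 ppm and KO minus WT at 120 ppm, 1 to 2 for CD-1 120 ppm, TG minus WT at 40 ppm and TG air, 0 to 1 for CD-1 minus WT at 10 ppm and 0 to 3 at 120 ppm. The replicate block also moved Pdk4 at WT 40 ppm (adjusted p = 0.0216 by limma), Acot2 at WT 10 ppm (0.0397) and Acot2 in KO minus WT at 10 ppm (0.0491) past the threshold. In 1 fit over all arrays, counts over all genes were 222, 17 and 119 for TG at 10, 40 and 120 ppm, 1, 44 and 115 for CD-1, 506, 1030 and 824 for KO minus WT, and 340 and 397 for CD-1 minus WT at 10 and 40 ppm. Without centring, 8552, 9167 and 6090 genes were called in KO, TG and CD-1 air. Without a filter TG air had 6041 and TG 120 ppm 5, and other settings gave TG 120 ppm 4 to 15, KO 10 ppm 2 and CD-1 120 ppm 4 to 5, and CD-1 minus WT at 40 ppm had 80 without the 3 arrays. Leaving out 1 lung moved that last count, 184 with all arrays, to between 88 (without WT 40 ppm replicate 3) and 707 (without CD-1 40 ppm replicate 4), and that at 120 ppm to 326 without CD-1 120 ppm replicate 3. It moved WT 10 ppm to 919 without replicate 5 at that dose, against 1434, and KO air to 898 without WT 0 ppm replicate 2, against 1448. TG 120 ppm had 2 to 39, the highest without TG 0 ppm replicate 5, CD-1 120 ppm had 1 to 7, and KO 10, TG 10 and TG 40 ppm had up to 2, 5 and 1. Probe sets near the table median, Ehhadh above all, limit what could be detected.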

Other observations

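In CD-1 air lungs 7 of 15 tested peroxisomal and omega-oxidation genes were lower and 1 was higher than in WT air lungs, by limma after centring. Without the 3 arrays with squamous and muscle genes 5 were lower and none higher in CD-1. In TG air lungs 4 were lower and none higher. Acox2, the oxidase for branched fatty acids and bile acid precursors, had differences of -1.35 ± 0.15 in CD-1 and -0.76 ± 0.15 in TG (SE, limma adjusted p = 7.53e-07 and 0.000703). In KO air its difference from WT air was -0.509 (limma adjusted p = 0.0305). That call was lost without the 3 arrays, with -0.511 (0.0578). Abcd2, a peroxisomal importer of very long fatty acids, had a difference of -1.12 ± 0.13 in TG (limma adjusted p = 4.45e-06). Of all tested genes 31.7% were called in CD-1 air, 35.3% in TG air and 12.7% in KO air. Here too strain and any difference in array processing cannot be told apart.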
